A study of Mus musculus with 10 samples.

Results

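A set of 10 extracellular matrix genes was followed through 10 RNA-seq libraries of mesenchymal cells from mouse Peyer's patches, the lymphoid follicles of the small intestinal wall. They were tenascin C (Tnc), fibronectin (Fn1), periostin (Postn), TGF-β-induced protein (Tgfbi), the SPARC family genes Sparc, Sparcl1, Smoc1 and Smoc2, and the thrombospondins Thbs1 and Thbs2. The 10 genes were taken by symbol from the 47643 genes of the tables, and all 10 were among the 12127 genes with enough reads to be tested. They were chosen with their values in these libraries known, and Smoc1 was picked because it is low in MRC replicates 1 to 3. Their MRC to MCi differences are therefore given as descriptions, and nothing is read from counts of members called by a test.

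All cells came from wild-type C57BL/6 mice and were sorted as podoplanin-positive cells without CD45, EpCAM1, TER119 or CD31, which mark leukocytes, epithelium, erythroid cells and endothelium. Cells without MAdCAM1, a vascular addressin that integrin alpha4 beta7 binds, formed the group named MCi (n = 5 libraries). Cells with MAdCAM1 formed the group named MRC (n = 5 libraries). The labels give neither the age of the mice, nor the number pooled, nor which libraries are from separate animals, so errors and p-values cover only how these samples varied, which may be technical variation.

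Libraries held 3941032 to 8738115 total exon reads, and gene levels are in CPM, the exon reads of a gene divided by those of all tested genes and scaled by TMM. At these depths 3 reads correspond to 0.311 to 0.777 CPM, which covers counting error only. Madcam1, which defines the gate, lay between 0 and 2.39 CPM in MCi and between 30.4 and 86.1 CPM in MRC. Cxcl13, a chemokine of marginal reticular cells, lay at 28.2 to 95.6 CPM in MCi and 90.4 to 285.9 CPM in MRC. Bst1, on the same marker list, was at 1.675 to 6.32 CPM in MCi and 16.1 to 121.8 CPM in MRC. The cytokine gene Tnfsf11, also on that list, was not higher in MRC. It was at 0.451 to 2.90 CPM in MCi and 0 to 1.97 CPM in MRC.

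Replicates 4 and 5 of MRC stood apart from MRC 1 to 3. The 10 epithelial markers summed to 25034 and 31367 CPM in MRC 4 and 5 and to between 10.03 and 3461 CPM in the other 8 libraries, although epithelium was gated out. Epcam itself reached 909.7 and 861 CPM there. The 8 fibroblast markers summed to 26630 and 26559 CPM in MRC 4 and 5, to between 91674 and 135005 CPM in MRC 1 to 3, and to between 44869 and 76298 CPM in MCi. Collagen genes and Dcn carry that sum, and Pdgfra was at 717 to 934 CPM in MRC 1 to 3 against 1161 to 2357 CPM in MCi. Fitted differences that rest on MRC 4 and 5 are given with and without them or by replicate set. The part of the epithelial transcripts in each was not tested.

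Matricellular proteins are secreted into the extracellular matrix, where they act less as structural fibres than as regulators of adhesion, growth factor activity and collagen assembly. Many are abundant during development and wound healing and signal through integrins or bind growth factors and proteases. Fibronectin and TGF-β-induced protein are usually counted as adhesive matrix glycoproteins and are followed here together with the matricellular genes. In lymphoid organs, fibroblastic reticular cells make the matrix network along which lymphocytes move, and tenascin C is a known component of it.

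The sequences just upstream of the transcription start of a gene that did not overlap between the groups, Tnc, the gene with the widest range in MRC, Postn, and the most abundant gene, Sparc, are shown from RefSeq (GRCm38.p6). Windows of 250 bases cover chr4:64046937-64047186 on the minus strand for Tnc (the more downstream of its listed starts), chr3:54360857-54361106 on the plus strand for Postn (also the more downstream of its listed starts) and chr11:55420081-55420330 on the minus strand for Sparc. Capitals mark matches to the motifs searched.
Tnc: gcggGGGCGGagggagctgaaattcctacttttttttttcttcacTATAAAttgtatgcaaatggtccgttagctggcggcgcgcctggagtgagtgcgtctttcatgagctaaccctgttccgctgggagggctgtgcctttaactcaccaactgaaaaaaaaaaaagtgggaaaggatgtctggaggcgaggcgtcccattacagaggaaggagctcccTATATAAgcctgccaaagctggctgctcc
Postn: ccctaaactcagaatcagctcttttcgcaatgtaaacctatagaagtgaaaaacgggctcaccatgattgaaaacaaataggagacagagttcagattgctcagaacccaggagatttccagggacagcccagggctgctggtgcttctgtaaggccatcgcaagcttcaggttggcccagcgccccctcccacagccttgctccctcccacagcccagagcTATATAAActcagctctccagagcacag
Sparc: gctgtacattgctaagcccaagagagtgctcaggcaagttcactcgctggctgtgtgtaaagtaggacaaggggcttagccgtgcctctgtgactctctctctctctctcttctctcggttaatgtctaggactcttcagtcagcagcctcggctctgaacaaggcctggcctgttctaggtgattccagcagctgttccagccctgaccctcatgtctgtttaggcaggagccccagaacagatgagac

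The motifs searched on both strands were the TATA box TATAAA, its longer form TATATAA, the CCAAT box, the AP-1 site TGACTCA, the GC box GGGCGG and the cAMP response element TGACGTCA. The short and long TATA forms can overlap. Tnc held TATATAA 29 bases upstream of the start, TATAAA 205 bases upstream and GGGCGG 246 bases upstream. The window of its other start held TATAAA 126 bases and GGGCGG 167 bases upstream of that start, and no TATATAA. Postn held TATATAA 28 bases upstream, overlapped by TATAAA at 26 bases, and none of the motifs was in the window of its other start. Sparc held none of these letters in the window. Among all 32851 promoter windows of the same length, 3.04% held the long TATA form, 12.4% the short form and 32.7% the GC box. The shares were 33.8% for the CCAAT box, 4.46% for the AP-1 site and 1.55% for the cAMP response element. Of the other members in the table, Tgfbi held 1 GC box, and Thbs2 held the CCAAT box in both orientations and the short TATA form on the opposite strand. Fn1, Sparcl1, Smoc1, Smoc2 and Thbs1 were not analysed here.

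Tnc and Smoc2 were the members whose MCi libraries all lay above all MRC libraries, each with a mean about 2-fold higher in MCi. Smoc1 had the largest fitted difference and gave 12 to 23 exon reads in MRC 1 to 3. Sparc, Sparcl1 and Postn averaged somewhat higher in MRC, but their MRC libraries split, with replicates 1 to 3 high and replicates 4 and 5 low, and their fitted differences were below 0 on unscaled log2 RPKM. Of the 12127 genes tested, 2.69% had every MCi library above every MRC library and 1.1% had the reverse, against 2 and 0 of the 10 members. The edgeR quasi-likelihood test with Benjamini-Hochberg adjustment called 53 genes (0.437%; 0.363% higher in MCi and 0.0742% higher in MRC) at an adjusted p under 0.05 and 0 of the members. At an unadjusted p under 0.05 it counted 3 members, all lower in MRC (16.7% of all genes in either direction, 6.09% lower in MRC). DESeq2 called 3, Tnc, Smoc1 and Smoc2 (7.12% of its genes in either direction, 2.34% lower and 4.79% higher in MRC). The members were chosen on this contrast, so nothing is read from these counts.

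**Figure D1:**
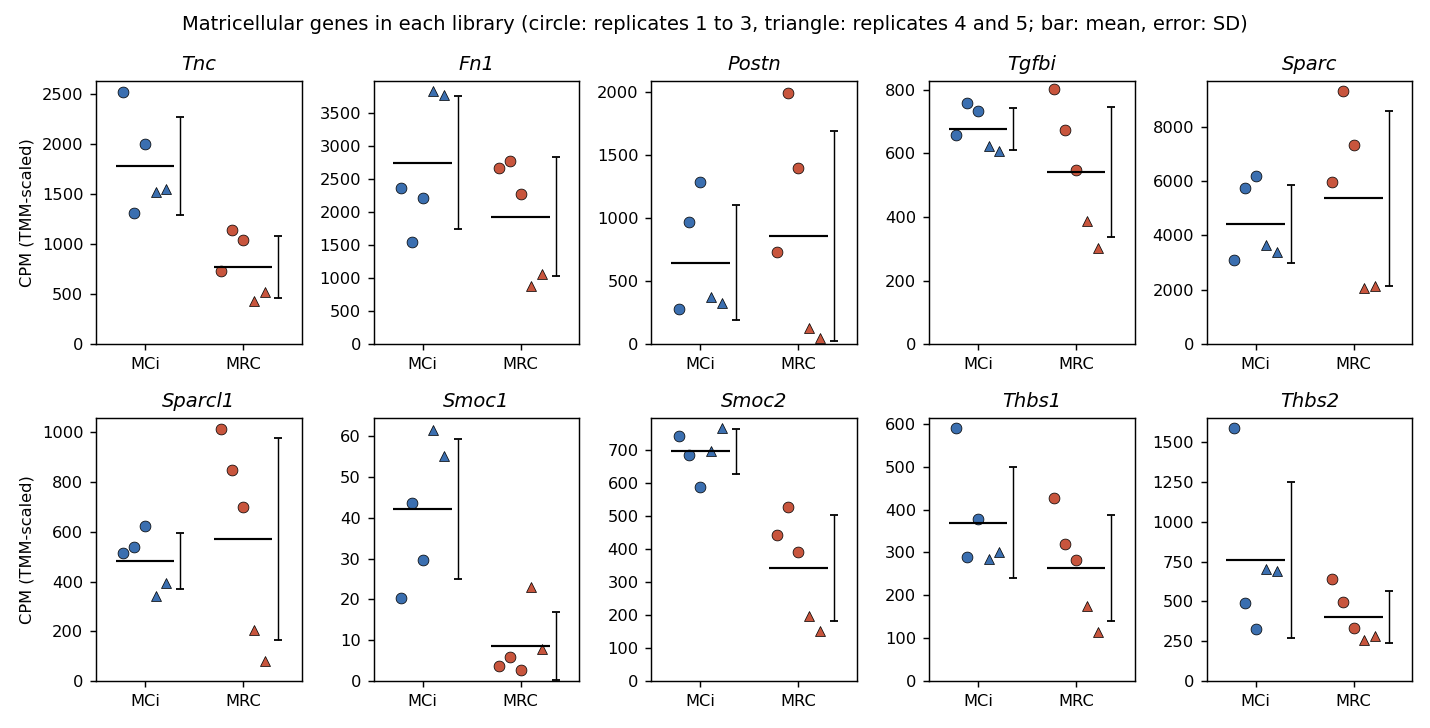
CPM (TMM-scaled) of each of the 10 genes in the 5 MCi and 5 MRC libraries, with the group mean as a bar, the SD as an error bar, circles for replicates 1 to 3 and triangles for replicates 4 and 5. Tnc and Smoc2 do not overlap between the groups, and MRC replicates 4 and 5 are the lowest MRC points for every gene except Smoc1.

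Tenascin C is a large oligomeric glycoprotein that modulates adhesion to fibronectin and binds integrins and chemokines. Tnc (ENSMUSG00000028364, GRCm38 chromosome 4, 63959785 to 64047015, minus strand, 28 exons) was measured at 2524, 1310, 1998, 1517 and 1546 CPM in MCi 1 to 5. In MRC 1 to 5 it was at 728, 1144, 1038, 427 and 521 CPM. The lowest MCi library lay above the highest MRC library, and the MRC libraries with most Tnc were replicates 2 and 3. The means were 1779 ± 486 CPM in MCi and 771.5 ± 314 CPM in MRC (SD, n = 5 each), 2.31-fold higher in MCi. The edgeR fit gave a log2 fold change of −1.21 ± 0.31 (SE), and all such values are MRC relative to MCi. It was −0.9997 ± 0.27 in replicates 1 to 3 alone and −1.77 ± 0.17 in replicates 4 and 5 alone, so Tnc was lower in MRC in both sets.

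Only 57.1 to 66.3% of the Tnc exon reads in a library were listed as unique, against 88.0% or more for each of the other members. Of the 50-base words in Tnc transcripts, 1.04% also occur in another GENCODE M21 gene, the antisense gene 8030451A03Rik, which held 8 exon reads over all libraries. The kit does not mark strand, so reads of a gene and its antisense partner cannot be told apart. Fn1 and Thbs1 shared 2.51 and 1.89% of their words with other genes, and 97.69% or more of their reads were unique. The cause of the low unique share of Tnc was not tested. With unique reads alone, the log2 fold change of Tnc was −1.22.

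Fibronectin forms the fibrillar scaffold that cells bind through integrin alpha5 beta1. Fn1 (ENSMUSG00000026193, chromosome 1, 71585520 to 71653200, minus strand) was at 2361, 1551, 2210, 3828 and 3768 CPM in MCi 1 to 5. The MRC libraries were at 2664, 2764, 2264, 885 and 1064 CPM in the same order. Fn1 was therefore highest in MCi 4 and 5 and lowest in MRC 4 and 5, and the groups overlapped. The group means were 2744 ± 1010 and 1928 ± 893 CPM, a log2 fold change of −0.51 ± 0.38. That value was 0.33 ± 0.21 in replicates 1 to 3 and −2.04 ± 0.16 in replicates 4 and 5, with opposite signs. The 5 mesothelial markers summed to 691 and 730 CPM in MCi 4 and 5, to between 17.7 and 109.5 CPM in MCi 1 to 3 and to at most 4.88 CPM in MRC. Their part in the Fn1 level of MCi 4 and 5 was not tested.

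Periostin and TGF-β-induced protein share fasciclin domains and bind collagen and integrins, and periostin promotes collagen cross-linking. Postn (ENSMUSG00000027750, chromosome 3, 54361109 to 54391037, plus strand) was at 280, 967, 1292, 379 and 326 CPM in MCi 1 to 5. In MRC 1 to 5 it was at 732, 1992, 1397, 132 and 48.3 CPM. MRC thus held both the 2 highest and the 2 lowest Postn libraries, a 41.3-fold range within the group. The means were 649 ± 455 CPM in MCi and 860 ± 833 CPM in MRC, and the log2 fold change of 0.41 ± 0.88 was smaller than its error. MRC 1 to 3 averaged 15.2 times the level of MRC 4 and 5, the widest such ratio among the members. In replicates 1 to 3 the log2 fold change was 0.70 ± 0.64, and in replicates 4 and 5 it was −2.01 ± 0.48.

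Tgfbi (ENSMUSG00000035493, chromosome 13, 56609603 to 56639339, plus strand) was steady in MCi, at 659, 758, 733, 623 and 608 CPM. The 5 MRC values were 803, 674, 547, 388 and 302 CPM. MRC 1 was the highest of all libraries and MRC 4 and 5 were the lowest. The means were 676 ± 66.6 and 543 ± 204 CPM, a log2 fold change of −0.32 ± 0.26, which was −0.09 ± 0.19 in replicates 1 to 3 and −0.90 ± 0.20 in replicates 4 and 5.

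SPARC binds collagen and calcium and guides the assembly of collagen fibrils. Sparc (ENSMUSG00000018593, chromosome 11, 55394500 to 55420080, minus strand) was at 3096, 5731, 6196, 3630 and 3405 CPM in MCi 1 to 5. MRC 1 to 5 had 5969, 9310, 7315, 2081 and 2124 CPM. MRC 2 and 3 exceeded every MCi library and MRC 4 and 5 were below every MCi library. The means were 4412 ± 1439 and 5360 ± 3202 CPM, and the log2 fold change was 0.28 ± 0.44 over all libraries. It was 0.59 ± 0.29 in replicates 1 to 3 and −0.81 ± 0.15 in replicates 4 and 5.

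Sparcl1 (ENSMUSG00000029309, chromosome 5, 104079111 to 104113733, minus strand) encodes hevin, a SPARC relative with anti-adhesive activity. It was at 517, 539, 622, 340 and 394 CPM in MCi 1 to 5. Its levels in MRC 1 to 5 were 1013, 848, 700.5, 207 and 80.1 CPM. It was the member for which MRC 1 to 3 all lay above MCi 1 to 3 (7.36% of all genes), while MRC 4 and 5 lay below every MCi library. The log2 fold change was 0.24 ± 0.56 over all libraries, 0.61 ± 0.19 in replicates 1 to 3 and −1.41 ± 0.45 in replicates 4 and 5.

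SMOC proteins are modular relatives of SPARC, and Smoc1 is known from Xenopus as an antagonist of BMP signalling. Smoc1 (ENSMUSG00000021136, chromosome 12, 81026808 to 81186414, plus strand) was at 20.3, 43.7, 29.7, 61.5 and 55.3 CPM in MCi 1 to 5, from 90 to 533 exon reads. MRC 1 to 3 had 3.58, 5.96 and 2.62 CPM, from 15, 23 and 12 reads. In MRC 4 and 5 it was at 23.0 and 7.95 CPM, from 146 and 40 reads. The groups overlapped only because MRC 4 lay above MCi 1. The means were 42.1 ± 17.2 and 8.62 ± 8.30 CPM, 4.88-fold higher in MCi, and the log2 fold change was −2.27 ± 0.57. Without MRC 4 and 5 the log2 fold change was −3.38 ± 0.45, and MCi averaged 10.4 times the level of MRC 1 to 3. The Smoc1 values of MCi 4 and 5 were the highest of MCi, as were their mesothelial marker sums. The order did not hold in MCi 1 to 3, where MCi 1 had the highest mesothelial sum (109.5 CPM) and the lowest Smoc1. This relation was not tested.

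Smoc2 (ENSMUSG00000023886, chromosome 17, 14279506 to 14404790, plus strand) is known in mouse as a marker of intestinal epithelial stem cells and as a modulator of growth factor signalling in fibroblasts. It was at 740, 683, 587, 696 and 766 CPM in MCi 1 to 5. The MRC libraries had 441, 526, 391, 198 and 150 CPM. The groups did not overlap. MRC 4 and 5, which had the highest epithelial marker sums, had the least Smoc2 of MRC, as for every member except Smoc1. The part of epithelium in the Smoc2 level was not tested. The means were 694 ± 68.7 and 341 ± 161 CPM, 2.04-fold higher in MCi, with a log2 fold change of −1.03 ± 0.33. Its value was −0.56 ± 0.19 in replicates 1 to 3, −2.14 ± 0.22 in replicates 4 and 5, and −0.62 ± 0.16 without MRC 4 and 5.

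Thrombospondins restrain vessel growth through CD36 and CD47, and thrombospondin 1 also activates latent TGF-β. Thbs1 (ENSMUSG00000040152, chromosome 2, 118111876 to 118127133, plus strand) was at 591, 289, 379, 285 and 301 CPM in MCi 1 to 5. For MRC 1 to 5 the levels were 427, 321, 282, 175 and 114 CPM. The groups overlapped, and MCi 1 was the highest library. The means were 369 ± 130 and 264 ± 123 CPM, with a log2 fold change of −0.49 ± 0.35. It was −0.22 ± 0.34 without MCi 1, −0.29 ± 0.27 in replicates 1 to 3, and −1.08 ± 0.26 in replicates 4 and 5. Thbs2 (ENSMUSG00000023885, chromosome 17, 14665500 to 14694262, minus strand) was at 1587, 491, 327, 703 and 693 CPM in MCi 1 to 5. The MRC levels were 639, 496, 335, 255 and 283 CPM. MCi 1 again stood highest, and the means were 760 ± 488 and 402 ± 162 CPM. The log2 fold change of Thbs2 was −0.92 ± 0.42 and was −0.44 without MCi 1, which also had the highest level of Tnc. It was −0.71 ± 0.65 in replicates 1 to 3 and −1.45 ± 0.15 in replicates 4 and 5.

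The replicate sets were also set side by side. In replicates 1 to 3, Tnc, Smoc1 and Smoc2 were higher in every MCi than in every MRC library, 3 of 10 members beside 7.73% of all genes. In replicates 4 and 5 all 10 members were higher in both MCi libraries than in both MRC libraries, beside 36.1% of all genes, and 0 had the reverse order, beside 32.2%. With edgeR at an adjusted p under 0.05, Smoc1 was the member called in replicates 1 to 3 alone (0.801% of all genes) and without MRC 4 and 5 (1.03%), which are the values it was picked for. In replicates 4 and 5 alone 9 members were called (26.2%), and with the library set as a covariate 2 were (1.7%), and nothing is read from these counts. Within MRC, 9 members had replicates 1 to 3 all above replicates 4 and 5 (28.1% of all genes), and Smoc1 had the reverse order (29.0%). The median log2 fold change of the members was −0.19 in replicates 1 to 3 and −1.61 in replicates 4 and 5, beside 0.00 and −0.09 for all genes tested there. Over all libraries it was −0.50, with 7 of 10 members below 0, beside 0.01 and 49.0% for all genes. The 8 smooth muscle and pericyte markers summed to 2800 to 4554 CPM in MCi and 1122 to 2083 CPM in MRC. Of these, Acta2, Tagln and Myh11 did not overlap between the groups and the others did. The 4 enteric glia markers summed to 107.5 to 357 CPM in MCi and 4.54 to 78.7 CPM in MRC. The follicular dendritic cell sum, carried by Clu and Mfge8, was higher in MRC. The part of these cell types in the member levels was not tested. In these bulk samples, fewer cells of a type and less RNA per cell cannot be told apart.

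**Figure D2:**
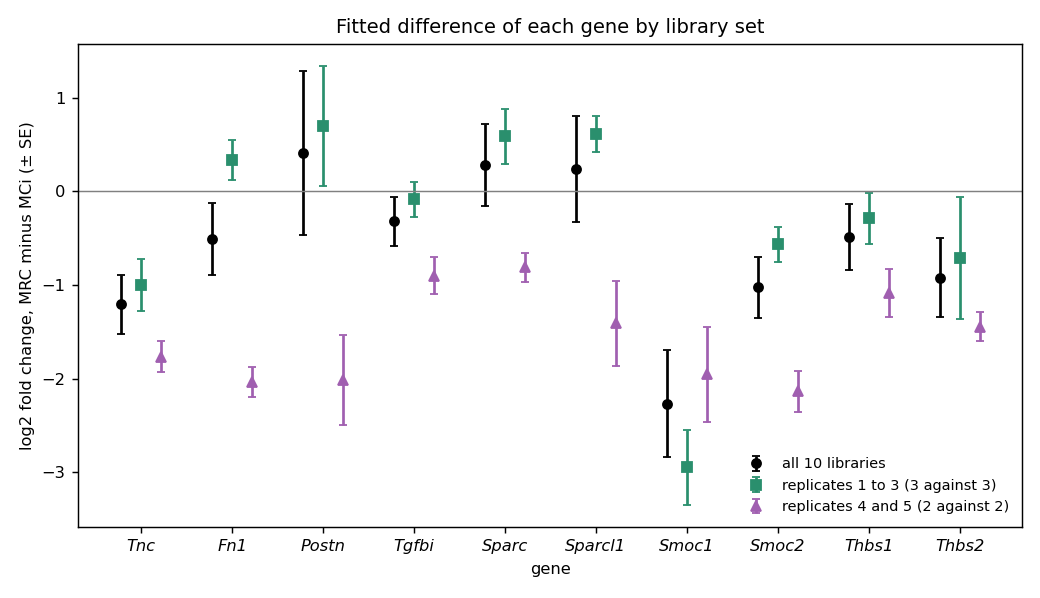
Fitted log2 fold change, MRC minus MCi, of each gene with its SE, for all 10 libraries, for replicates 1 to 3 and for replicates 4 and 5. Every value from replicates 4 and 5 is below 0, whereas Fn1, Postn, Sparc and Sparcl1 are above 0 in replicates 1 to 3.

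The 10 genes together took 1.29 to 1.69% of the exon reads of the MCi libraries and of MRC 1 to 3, and 0.433 and 0.385% in MRC 4 and 5. Shares of this total compare the members within a library and do not depend on how much other RNA the library held. Sparc made up 25.0 to 46.4% of the member reads in MCi and 43.6 to 51.5% in MRC. Tnc made up 10.6 to 20.4% in MCi, 5.43 to 7.27% in MRC 1 to 3, and 8.95 and 11.1% in MRC 4 and 5. The Tnc share of MRC 5 thus overlapped the MCi range. Smoc1 made up 0.164 to 0.510% in MCi, 0.0184 to 0.0330% in MRC 1 to 3, and 0.482 and 0.169% in MRC 4 and 5, so on this measure MRC 4 and 5 lay within the MCi range. Smoc2 made up 4.08 to 6.45% in MCi and 2.74 to 4.14% in MRC, with a small overlap.

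**Figure D3:**
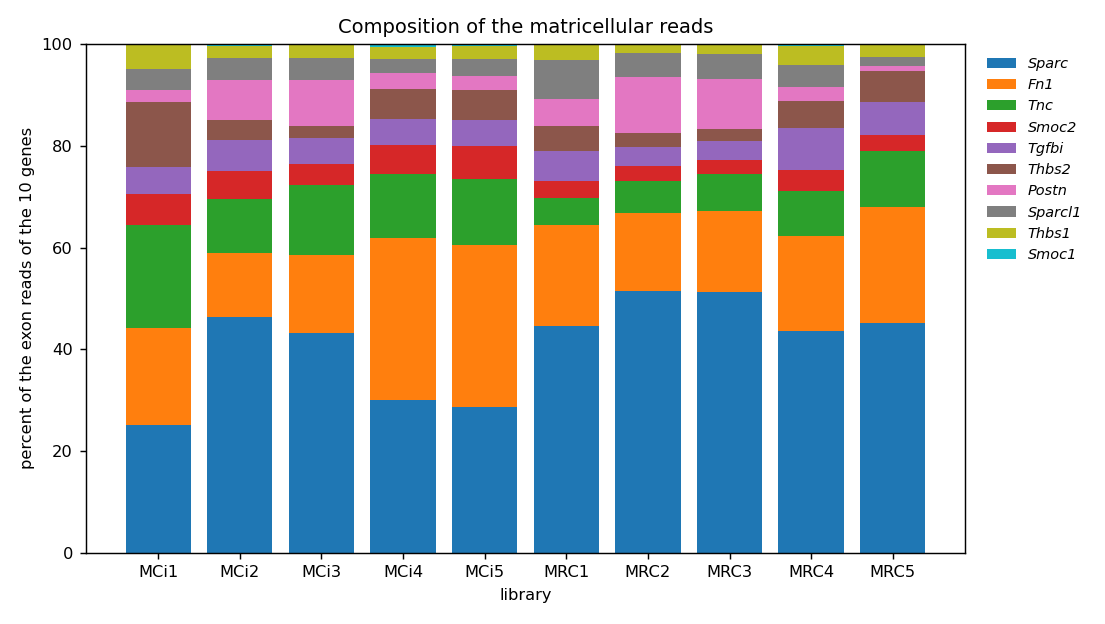
Percent of the summed exon reads of the 10 genes that each gene took in each library, as stacked bars that reach 100. Sparc takes 43.6 to 51.5% in each MRC library, and the Tnc part is narrower in MRC 1 to 3 (5.43 to 7.27%) than in MCi (10.6 to 20.4%).

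Per exon length, in the authors' RPKM values, Sparc stood first and Smoc1 last in both groups. In MCi, Sparc averaged 1326 ± 406 RPKM (SD, n = 5) and ranked between 14 and 30 among all genes. Tgfbi (256 ± 19.2 RPKM), Smoc2 (250 ± 29.2), Fn1 (241 ± 94.2) and Tnc (233 ± 61.8) followed and differed by less than their spread. Sparcl1 (166 ± 35.7 RPKM) and Thbs2 (131 ± 83.2) also differed by less than their spread, as did Postn (75.0 ± 51.3) and Thbs1 (61.7 ± 21.2). This spread is between libraries and does not show whether an order held within each library. Smoc1 averaged 12.3 ± 5.26 RPKM in MCi.

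In MRC, Sparc averaged 1410 ± 885 RPKM, with a rank between 7 and 99. The next members, Tgfbi (178 ± 76.3 RPKM), Sparcl1 (174 ± 128), Fn1 (145 ± 73.8), Smoc2 (106 ± 54.5), Postn (88.6 ± 85.9), Tnc (86.9 ± 39.2), Thbs2 (59.3 ± 27.1) and Thbs1 (38.3 ± 19.7), each differed from its neighbour by less than their spread. The spread is again between libraries and does not measure the order of genes within a library. Smoc1 averaged 2.04 ± 1.88 RPKM. By their means, Tnc held the 5th place in MCi and in MRC 4 and 5 and the 7th in MRC 1 to 3. Sparcl1 held the 6th place in MCi and in MRC 4 and 5 and the 2nd in MRC 1 to 3.

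Ratios of members within a library, in RPKM, differed in how they lay across the library sets. Smoc2 exceeded Smoc1 by 14.0 to 45.0 times in MCi, by 109 to 184 times in MRC 1 to 3, and by 10.6 and 23.3 times in MRC 4 and 5. The ratio of Tnc to Fn1 was 1.27 to 1.61 in MCi 1 to 3, 0.596 and 0.617 in MCi 4 and 5, and 0.411 to 0.736 in MRC. Sparc exceeded Tnc by 2.83 to 10.1 times in MCi, 16.3 to 18.9 times in MRC 1 to 3, and 11.3 and 9.42 times in MRC 4 and 5. The ratio of Tgfbi to Postn was 1.84 to 7.66 in MCi, 1.10 to 3.56 in MRC 1 to 3, and 9.54 and 20.3 in MRC 4 and 5. The ratio of Thbs2 to Thbs1 was 0.886 to 2.76 in MCi, 1.22 to 1.59 in MRC 1 to 3, and 1.498 and 2.55 in MRC 4 and 5, so all MRC libraries lay within the MCi range. The ratio of Sparc to Sparcl1 was 5.23 to 9.31 in MCi, 5.14 to 9.58 in MRC 1 to 3, and 8.78 and 23.1 in MRC 4 and 5, and only MRC 5 stood far from the rest.

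**Figure D4:**
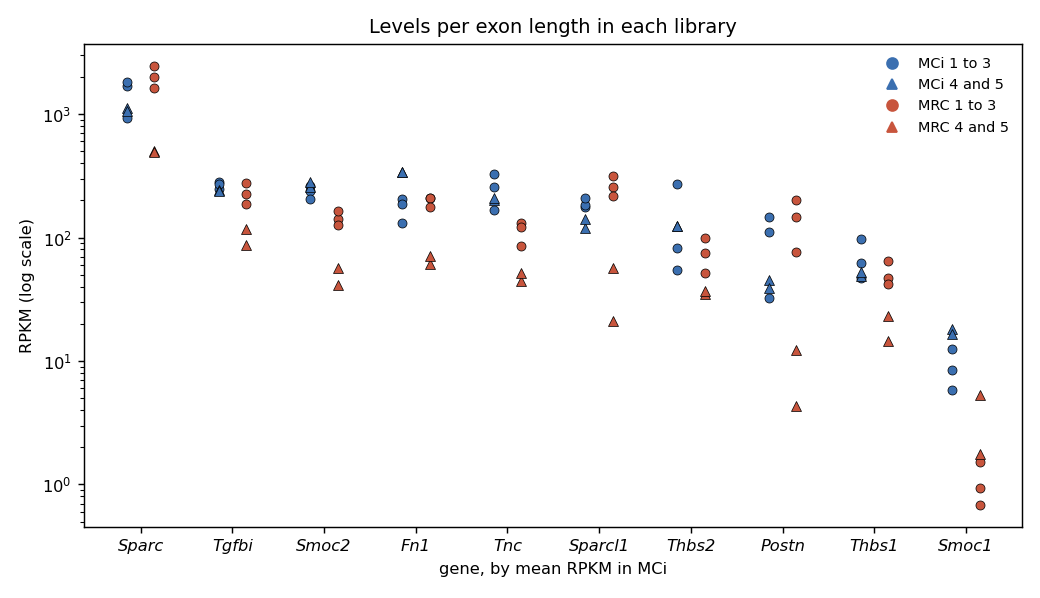
RPKM on a log scale of each gene in each library, in the order of the MCi means, with MCi in blue, MRC in red, circles for replicates 1 to 3 and triangles for replicates 4 and 5. Sparc lies highest and Smoc1 lowest in both groups, and Postn in MRC 4 and 5 lies at 12.3 and 4.31 RPKM, below its other libraries.

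Genes of the same families and the receptors of these proteins were examined for the same contrast. Of 26 other matricellular and related matrix genes, 21 had enough reads (Wisp3, Comp, Tnr, Spp1 and Spock1 did not). With edgeR, 0 of the 21 passed an adjusted p of 0.05, beside 0.437% of all genes, and 7 had an unadjusted p under 0.05 (16.7% of all genes). Of those 7, 5 were lower in MRC (6.09% of all genes) and 2 were higher. DESeq2 called 2 (7.12% of all genes), Efemp1 lower and Lgals3 higher in MRC. Over the list, the median of the log2 differences was 0.35, with 8 of 21 below 0, beside 0.01 and 49.0% for all genes. The list's median was 0.31 in replicates 1 to 3, −0.64 in replicates 4 and 5, 0.22 without MRC 4 and 5, and −0.04 on unscaled log2(RPKM + 1).

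Efemp1, a fibulin of elastic tissue, was at 826, 829, 874, 1047 and 1032 CPM in MCi 1 to 5. Its MRC libraries had 742, 612, 508, 411 and 457 CPM. The groups did not overlap, and its log2 fold change was −0.76 ± 0.20 (edgeR quasi-likelihood adjusted p = 0.144, range over the alternatives 0.00253 to 0.490). Fbln1, a fibulin that binds fibronectin, had means of 1798 ± 642 CPM in MCi and 2874 ± 1857 CPM in MRC, and its log2 difference was 0.68 ± 0.51 (edgeR adjusted p = 0.547, range 0.0857 to 0.884). It was at 3643 to 4866 CPM in MRC 1 to 3 and at 977 and 821 CPM in MRC 4 and 5. Cyr61, a CCN family regulator of adhesion, differed by −0.20 ± 0.38 on the log2 scale (edgeR adjusted p = 0.854, range 0.137 to 0.992). Spon1, an F-spondin first known from the nervous system, differed by 0.37 ± 0.29 (edgeR adjusted p = 0.572, range 0.0277 to 0.963). Ecm1 differed by 0.01 ± 0.38 (edgeR adjusted p = 0.992, range 0.105 to 0.988). Ecm1 was at 2146 and 2050 CPM in MCi 4 and 5 and at 652 to 1092 CPM in MCi 1 to 3. Without MRC 4 and 5 the log2 differences were −0.57 for Efemp1, 1.22 for Fbln1 and 0.22 for Cyr61. They were 0.73 for Spon1 and −0.11 for Ecm1 in that setting.

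Lgals3, a galectin named after its values were seen, was at 387 and 409 CPM in MRC 4 and 5 and at 3.35 to 47.4 CPM in the other 8 libraries. It was therefore high in the libraries with the highest epithelial marker sums, and the part of epithelium in its level was not tested.

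Of 19 receptors and binding partners, 17 had enough reads (Itgb6 and Stab1 did not). With edgeR, 0 of the 17 passed (0.437% of all genes), and 4 had an unadjusted p under 0.05 (16.7%), 3 of them lower in MRC (6.09%). DESeq2 called 1, Itga4 (7.12%). On the log2 scale the receptors had a median difference of −0.34, and 13 of 17 were below 0 (49.0% of all genes). That median was −0.03 in replicates 1 to 3, −0.77 in replicates 4 and 5, and −0.23 without MRC 4 and 5. Itga4, the integrin alpha4 subunit whose dimers bind fibronectin and MAdCAM1, was named after its values were seen. It was at 15.5, 12.0, 26.1, 13.0 and 14.6 CPM in MCi 1 to 5. Its MRC values were 3.11, 4.14, 5.02, 1.42 and 0.795 CPM. The groups did not overlap, and the means were 16.3 ± 5.67 and 2.90 ± 1.78 CPM, 5.61-fold higher in MCi. The log2 difference of −2.49 ± 0.47 missed the threshold (edgeR adjusted p = 0.0532, range over the 21 alternatives that tested it 2.76e-05 to 0.140). Without MRC 4 and 5 the difference was −1.98.

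Itgb1, the beta1 subunit shared by many of these integrins, had means of 1318 ± 61.2 CPM in MCi and 975 ± 287 CPM in MRC and differed by −0.44 ± 0.23 on the log2 scale (edgeR adjusted p = 0.367, range 0.00761 to 0.876). Itgb5, a partner of the alphav subunit, averaged 471 ± 52.6 and 429 ± 170 CPM (edgeR adjusted p = 0.859, range 0.00692 to 0.988). The thrombospondin receptor Cd47 averaged 373 ± 51.3 and 404 ± 118 CPM (edgeR adjusted p = 0.855, range 0.210 to 0.972). Lrp1, which clears thrombospondins from the cell surface, averaged 1125 ± 459 and 1137 ± 604 CPM (edgeR adjusted p = 0.992, range 0.0426 to 0.998). Calr, which acts with Lrp1 in thrombospondin signalling, averaged 699.5 ± 93.1 and 611 ± 27.2 CPM (edgeR adjusted p = 0.592, range 0.120 to 0.919). These 5 genes overlapped between the groups. Without MRC 4 and 5 the log2 difference of Itgb1 was −0.17, and that of Itgb5 went from −0.14 to 0.21. In that setting it was 0.39 for Cd47, 0.46 for Lrp1 and −0.19 for Calr. Cd36, a scavenger receptor that binds thrombospondins and was named after its values were seen, was at 0 to 6.01 CPM in MCi, 0.518 to 15.9 CPM in MRC 1 to 3, and 58.9 and 134 CPM in MRC 4 and 5, the libraries with the most epithelial transcripts.

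**Figure D5:**
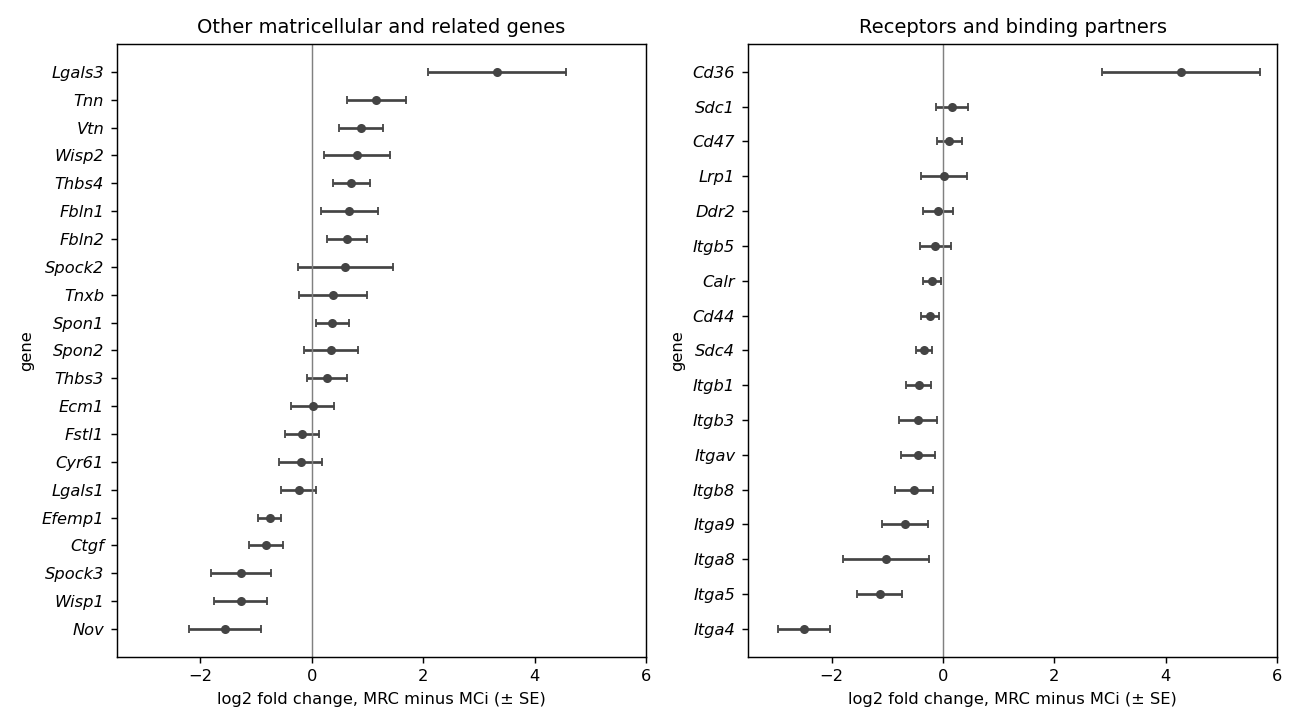
Fitted log2 fold change, MRC minus MCi, with SE, of the 21 other matricellular and related genes (left) and the 17 receptors and binding partners (right) that had enough reads. Itga4, at −2.49 ± 0.47, is the lowest point, and Lgals3 and Cd36 are the highest points and have the widest error bars.

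The genes most like a member across the 10 libraries were named by the smallest root-mean-square difference of log2 CPM, each centred on its own mean, among genes of at least 10 CPM on average. Tnc was nearest to Lama4, a laminin chain (difference 0.206), followed by the TGF-β co-receptor Eng (0.254) and the thrombomodulin gene Thbd (0.261). Lama4 was at 645 to 1041 CPM in MCi and 256 to 611 CPM in MRC. Sparcl1 was nearest to Lrrn2 (0.197), the Wnt receptor Fzd1 (0.244) and Igsf10 (0.246). Fzd1 was at 475 to 538 CPM in MRC 1 to 3 and at 136 and 82.6 CPM in MRC 4 and 5, the same split as Sparcl1. The genes were chosen on these same libraries, so a pattern shared with the member follows from the choice. Thbs1 was nearest to Foxj2 (0.168), Tmem109 (0.182) and the BMP receptor Bmpr2 (0.186).

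Smoc1 had no neighbour as close. This measure also grows with counting error and with the size of a gene's differences, and Smoc1 had 12 to 23 reads in MRC 1 to 3. The distance therefore does not show a pattern peculiar to Smoc1. The genes nearest to Smoc1 were the calcium pump Atp2a3 (0.660), the activin subunit Inhbb (0.739) and the ectonucleotidase Nt5e (0.740). Atp2a3 was at 81.4 to 202 CPM in MCi, 19.2 to 28.4 CPM in MRC 1 to 3, and 74.0 and 35.4 CPM in MRC 4 and 5. Inhbb was at 22.4 to 56.1 CPM in MCi, 2.85 to 5.02 CPM in MRC 1 to 3, and 16.7 and 6.16 CPM in MRC 4 and 5. For both genes MRC 4 was the highest MRC library, as it was for Smoc1, and this follows from how they were chosen.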

How the data were processed

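Each library had a deposited table of 47643 genes with the authors' counts of total exon reads and unique exon reads and their RPKM values, per the file headers. Per the labels' protocols, total RNA came from a column kit and cDNA was amplified with SMART-Seq v4, which does not mark strand. The build is GRCm38, per the submitters' processing notes. Names of the aligner, counter and annotation were not given in the sources used here. Since the kit adds no molecular identifiers, copies made by PCR can be among the reads counted.

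Total exon reads were filtered with filterByExpr (minimum count 10, minimum total 15), scaled by TMM and fitted with edgeR 4.0.16 (robust quasi-likelihood, R 4.3.3) over all 5 MCi and 5 MRC libraries. P-values were adjusted by Benjamini-Hochberg over 12127 genes, with a threshold of 0.05. SE is the log2 fold change divided by the root of the F statistic. Log2 CPM for likeness used a prior count of 2. RPKM served for levels per length and, in limma 3.58.1, for an alternative. DESeq2 1.42.0 was another. The scripts were tested on simulated data. No replicate pair matched to within counting error, since the mean chi-square per gene was 7.77 for MCi 4 and 5, the closest pair. It was 20.83 or more for every other pair. This measure cannot show whether 2 libraries came from the same cells or RNA.

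The members and the gene lists were chosen with earlier results of these data known. Named genes are the members, from each list those past the threshold and the 5 others with the highest mean CPM, and the 3 genes most like Smoc1, Tnc, Sparcl1 and Thbs1. Of the gene identifiers, 47224 were present in GENCODE M21. Promoters are from RefSeq (5 of 10 members matched).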

Additional observations from a re-analysis of the deposited data

Results flagged for a closer look

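Smoc1 in MRC 4 was at 22.98 CPM, far from the other 4 MRC libraries (2.62 to 7.95 CPM). The gap to the nearest library was 0.739 of the group's range, above Dixon's critical value at the 95% level for 5 samples. Smoc1 was chosen for its low level in MRC 1 to 3, so the choice favoured this gap, which is given as a description only. Itga4 in MCi 3 was at 26.08 CPM, with the other 4 MCi libraries at 12.0 to 15.5 CPM and a gap of 0.747 of the range. These were 2 of 42 groups examined, and chance flags about 1 in 20.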

How the results depend on the processing

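The count of genes called (53) was 1080 with DESeq2, 206 with the library set (replicates 1 to 3 or 4 and 5) as a covariate, 95 in replicates 1 to 3 alone, 3460 in replicates 4 and 5 alone, 128 without MRC 4 and 5, and 244, 159 and 149 with limma on log2(RPKM + 1), on log2(RPKM + 0.1) and on log2(RPKM + 1) without a filter. The members called (0) were 3, 2, 1, 9, 1, 2, 1 and 1 in that order. The shares of all genes were 7.12, 1.7, 0.801, 26.2, 1.03, 2.16, 1.41 and 0.637%. The related genes called (0) were 3 with DESeq2 (7.12% of all genes) and 2 with the covariate (Itga4 and Cd36, 1.7%). They were 1 without a filter (0.312%) and 1 at 5 CPM or more (0.573%), Itga4 in both. They were 21 in replicates 4 and 5 alone (26.2%) and 1 without MRC 4 and 5 (1.03%). With limma on log2(RPKM + 1), 1 was called with its filter (2.16%) and 1 without it (0.637%). Leaving out 1 library gave 16 to 49 genes (0.131 to 0.401% of all genes) and 0 to 0 related genes. It gave 0 to 1 members, Smoc1 without MRC 4 (0.401%), where the low values it was picked for remain. The gene count moved by over 1.5 times on leaving out each of MCi 1 to 5 and MRC 1 to 3, but not MRC 4 or MRC 5. With the replicate number as a block, 49 genes (0.404%), 1 member (Smoc1) and 1 related gene (Cd36) were called, and Postn (−0.29) and Sparcl1 (−0.20) lay below 0. For pairing, the group mean of each gene was first subtracted from its log2 CPM. These deviations correlated between same-numbered MCi and MRC libraries at 0.558, −0.254, 0.062, 0.346 and 0.485. The numbers were therefore not taken as a pairing, and not every MCi library correlated best with its own number. Spon1 (−0.68), Lrp1 (−0.66), Fbln1 (−0.35), Ecm1 (−0.54) and Cd47 (−0.31) had the opposite sign in replicates 4 and 5 alone, and the cause was not tested. Of 230 log2 fold changes of members under alternatives, 9 moved by more than 1 SD between replicates. Postn was −0.17 and Sparc −0.02 without MRC 2, and Sparcl1 was −0.07 without MRC 1. Unscaled RPKM moved the median of all filtered genes to −0.21 and put all 10 members below 0, with Postn, Sparc and Sparcl1 changing sign. Tnc, Tgfbi, Smoc1, Smoc2, Thbs1 and Thbs2 were below 0 under all 23 alternatives. Without MRC 4 and 5, however, Tgfbi (−0.0016 ± 0.17) and Thbs1 (−0.10 ± 0.26) differed by less than their SE. At 12 to 23 reads, depth limits the Smoc1 level in MRC 1 to 3.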
